A study of Mus musculus with 15 samples.

Results

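Astrocyte marker genes were examined in the dentate gyrus (DG) of mice with and without functional 5-HT4 receptor in granule and mossy cells. The group holds 30 genes, chosen by gene symbol as known astrocyte markers, with earlier results of these data known, out of 32657 genes counted in each library. All 30 were found in the deposited counts and all 30 passed the filter on low counts in every comparison. The lowest count of a member was 5, for *Slc7a10* in a cKO IP.

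RNA was profiled in 15 libraries of 6 groups by translating ribosome affinity purification (TRAP), in which ribosomes carrying EGFP-L10a are pulled down with an antibody to EGFP. The immunoprecipitate (IP) holds mRNA bound to tagged ribosomes. The input holds RNA of the cleared homogenate before the pull-down, without selection by cell type. Mice of all 6 groups carried the Drd3-Cre KI198 transgene and the Rosa26-fsTRAP allele, so that granule cells and hilar mossy cells were tagged in the WT groups as well. The cKO mice carried the Htr4-Floxed allele in addition. This allele loses exon 5 of *Htr4* in Cre-expressing cells. WT groups had 3 libraries each and cKO groups 2, for the ventral DG (vDG) IP, the vDG input and the dorsal DG (dDG) input. No dDG IP was analysed here. Mice were 8 to 12 weeks old, and the labels name no treatment. All lines were kept on a C57BL/6J background. Each library pools animals, 3 per IP and 2 per input by the sample labels, whereas the methods give 1 male and 1 female per replicate. The KI198 line is a BAC transgene that also labels some CA pyramidal cells. Astrocytes are not among the cells it is reported to label.

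Astrocytes take up glutamate and potassium after neuronal firing, convert glutamate to glutamine, supply metabolites to neurons and are joined to each other through gap junctions. In the DG they fill the molecular layer and hilus, and their end-feet cover the blood vessels. The radial glia-like stem cells below the granule cell layer share many of these markers, among them *Gfap*, *Sox9* and *Slc1a3*, so the group marks both cell types. In bulk RNA, fewer astrocytes and less RNA per astrocyte cannot be told apart.

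Libraries held 19039295 to 30451430 counts on genes. Levels are CPM, counts scaled to a common library total, after TMM scaling, an adjustment for differences in RNA composition between libraries. The ventral marker *Trhr* had a mean of 0.509 CPM in WT dDG inputs and 26.2 CPM in WT vDG inputs, and summed CPM of 12 granule cell markers was 2678 to 4650 over all libraries, although the inputs are labelled as cortex. Counts of *Htr4* include exons that the deletion leaves in place and therefore do not check the genotype. They were 14.4, 18.6 and 13.8 CPM in WT vDG inputs and 29.3 and 27.5 CPM in cKO vDG inputs. In 2 of the 3 WT dDG inputs, choroid plexus markers stood apart, and counts of called members that rest on these libraries are also given without both.

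The IP was compared with the input of the same region and genotype, to see how far RNA of cells outside the tagged population was removed. In WT vDG, 29 of 30 astrocyte genes were lower in the IP than in the input at a false discovery rate (FDR) under 0.05, where 16.1% of all 15011 genes tested were lower. The median log2 fold change of the members was -2.45, against 0.00 for all genes tested. For 26 of 30 the IP level was under 0.5 times the input level, the limit used for IP depletion, which 11.4% of all genes passed. In cKO vDG, 28 of 30 members were lower (15.7% of all genes), 25 of them past the limit of depletion (10.7% of all genes), with a median of -2.36 against -0.03. No member was called higher in the IP of either genotype by edgeR, at an unadjusted p under 0.05 or by DESeq2. The WT and cKO fits share no libraries, and their log2 fold changes across the 30 genes had a Pearson r of 0.959 (Spearman rho 0.956), as a description over genes that share the same libraries within each fit. The summed level of all 30 members in the WT IPs was 29.6% of the mean in the inputs, and in cKO 34.7%.

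**Figure D1:**
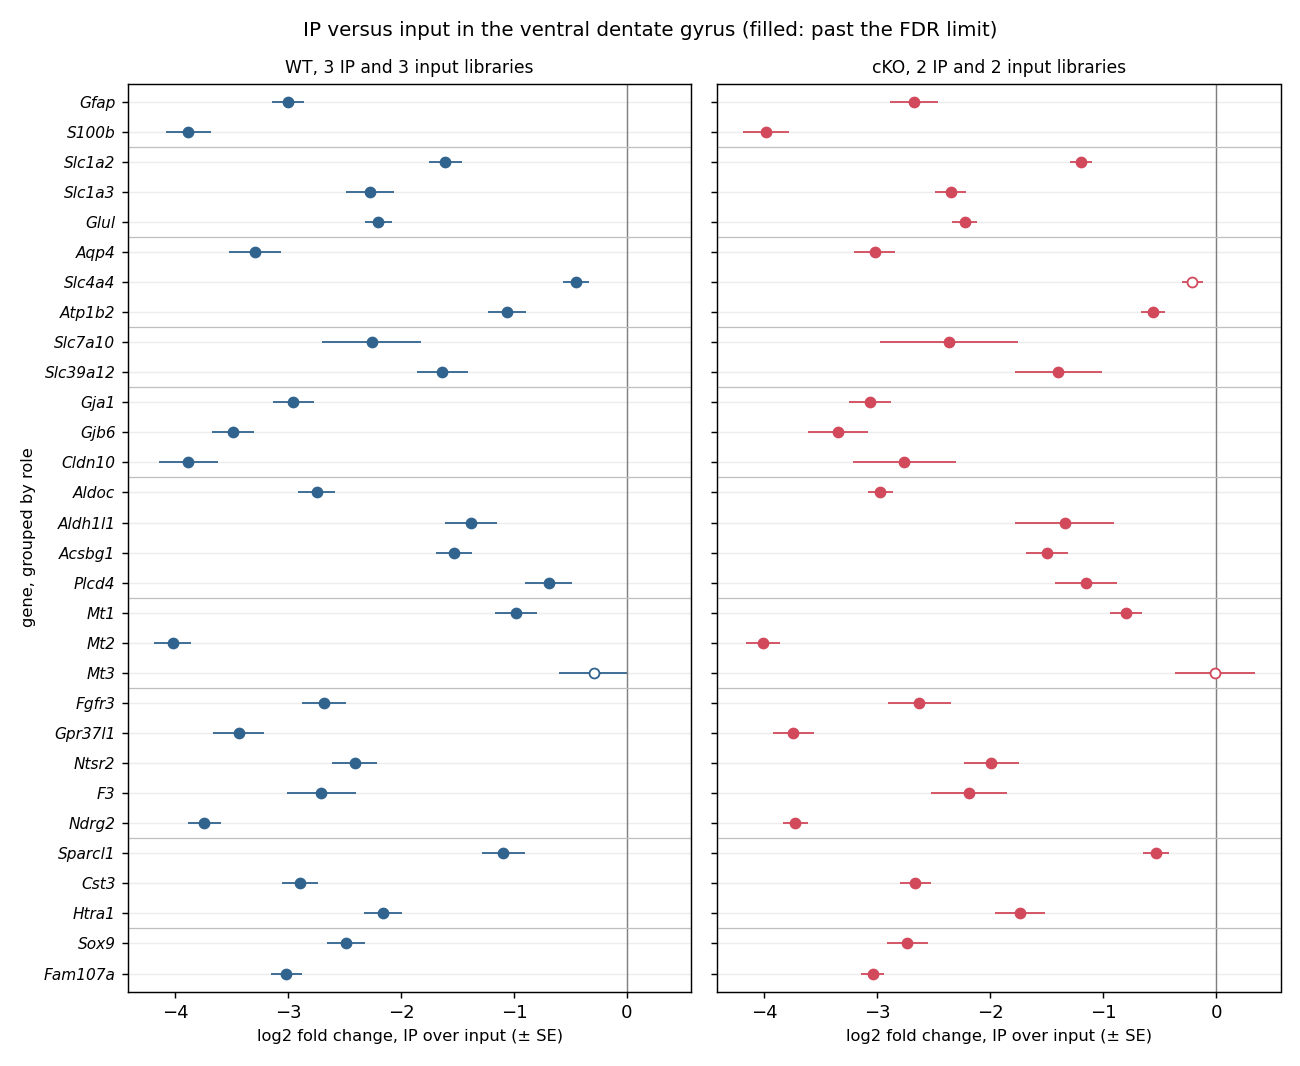
Log2 fold change of IP over input for each of the 30 astrocyte genes in WT (left) and cKO (right) vDG, with standard errors (SE) from the fit and lines between the roles. Filled points passed an FDR of 0.05; all points lie below 0, from -4.02 for Mt2 to near 0 for Mt3.

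Depletion was unequal among members. The glutamate transporter gene *Slc1a2* (GLT-1, chromosome 2, 102658659 to 102790784) was the most abundant member and made up 39.9 to 59.8% of the summed level. It measured 1146, 1195 and 1731 CPM in the WT IPs against 3798, 4305 and 3775 CPM in the inputs, so that 32.8% remained (log2 fold change -1.61 ± 0.15 (SE), FDR 2.18e-06). In cKO it measured 919.8 and 958 CPM in the IPs against 2237 and 1989 CPM in the inputs, with 43.6% remaining (log2 fold change -1.20 ± 0.096 (SE), FDR 3.05e-06). IP and input did not overlap in either genotype, but *Slc1a2* was depleted less than the other members of its role. For *Slc1a3* (GLAST), the second glutamate transporter, 20.7% remained in WT and 19.6% in cKO. For *Glul*, glutamine synthetase, the values were 21.7% and 21.3%, and 5.92% of its 75-base stretches also occur in transcripts of other genes, mainly the pseudogene *Glns-ps1*.

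Both structural markers were strongly depleted. The calcium-binding protein gene *S100b* measured 2.24, 3.85 and 2.54 CPM in WT IPs against 40.5, 39.98 and 41.98 CPM in inputs (log2 fold change -3.88 ± 0.20 (SE), FDR 7.89e-09), and 6.77% remained in WT and 6.3% in cKO. The intermediate filament gene *Gfap* fell from 70.2, 59.4 and 65.8 CPM in WT inputs to 8.21, 8.13 and 9.15 CPM in IPs (log2 fold change -3.00 ± 0.14 (SE), FDR 4.11e-09), with 12.5% remaining. Cytoplasmic and membrane proteins of other roles reached similar values. *Ndrg2*, a differentiation-associated gene of astrocytes, measured 32.002, 44.96 and 40.9 CPM in WT IPs and 527, 515 and 469.5 CPM in inputs (log2 fold change -3.74 ± 0.15 (SE), FDR 9.76e-10), and *Fam107a*, which encodes a stress-responsive actin-binding protein, measured 64.9, 56.5 and 77.9 CPM in WT IPs and 512, 505 and 526 CPM in inputs (log2 fold change -3.02 ± 0.14 (SE), FDR 2.67e-09). The gap junction genes *Gja1* (connexin 43) and *Gjb6* (connexin 30) and the tight junction gene *Cldn10* had log2 fold changes of -3.88 to -2.96 in WT and -3.35 to -2.76 in cKO. The receptor and signalling genes *Fgfr3*, *Gpr37l1*, *F3* and the neurotensin receptor gene *Ntsr2* lay between -3.44 and -2.41 in WT, the secreted proteins *Cst3* and *Htra1* at -2.90 and -2.16, and *Sox9* at -2.49. The enzyme genes were spread widely, from *Aldoc* at -2.75 over *Acsbg1*, a fatty acid-activating enzyme, at -1.53 and *Aldh1l1* at -1.38 to *Plcd4*, a phospholipase C, at -0.69, and the transporters *Slc7a10* and *Slc39a12*, of amino acids and zinc, were at -2.26 and -1.64. All of these passed in both genotypes in the fits as reported. Some calls were lost under alternatives: that of *Plcd4* in 4 of 13 in WT, each leaving out a single library, and in 1 of 11 in cKO, and in cKO that of *Aldh1l1* in 3 of 11, DESeq2 among them (log2 fold changes of -1.82 to -0.85), of *Slc7a10* in 2 of 10 and of *Slc39a12* in 1 of 11.

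Several members of other roles were depleted less. The sodium bicarbonate cotransporter gene *Slc4a4* measured 166, 185 and 179 CPM in WT IPs against 225, 251 and 217 CPM in inputs, a small but separate difference (log2 fold change -0.45 ± 0.12 (SE), FDR 0.0109) with 73.1% remaining, and the call was lost in 1 of 13 alternatives. In cKO its log2 fold change was -0.21 ± 0.095 (FDR 0.125), which did not pass. *Atp1b2*, the glial beta subunit of the sodium pump, retained 48% in WT and 68% in cKO, and *Sparcl1*, encoding the secreted synaptogenic protein hevin, 46.8% and 69.1%. In the same role group as *Slc4a4*, the water channel gene *Aqp4* of the end-feet retained 10.2% in WT and 12.3% in cKO. Across the 30 members, the log2 fold change in WT had a Spearman rho of -0.15 with the mean CPM in the input and of 0.227 with the exonic length, as descriptions over genes.

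Levels per kilobase of exon show which transcripts dominated. In the WT vDG input, *Slc1a2* came first with a mean of 302 CPM per kb, followed by *Cst3* (208), *Glul* (175), *Ndrg2* (148) and *Sparcl1* (142). In the WT IP the order changed to *Slc1a2* (103), *Sparcl1* (69.5), *Glul* (39.7) and *Atp1b2* (37.4) CPM per kb. *Aldh1l1*, the folate enzyme gene often used to mark all astrocytes, had 1.45 CPM per kb in the input and *Slc7a10*, a transporter of small neutral amino acids, 1.03 CPM per kb, near the bottom of the group with *Plcd4* (1.09).

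The metallothioneins, small cysteine-rich proteins that bind zinc and copper, had the widest range of log2 fold changes of any role in the comparison of IP with input. *Mt3*, *Mt2* and *Mt1* are neighbours on chromosome 8 of GRCm38 (mm10), at 94152607 to 94154146, 94172664 to 94173568 and 94179082 to 94180327, all on the plus strand. *Mt1* and *Mt2* are known to be induced together by metals and glucocorticoids, whereas *Mt3* is the brain form and is also found in neurons. The promoter windows from 250 bases before to 50 bases after the RefSeq start (GRCm38.p6) are shown as background on these neighbours. The part of these sequences in the measured values was not tested. Capitals mark matches to the metal response element core, searched as TGCACNC or TGCGCNC on both strands.
Mt1: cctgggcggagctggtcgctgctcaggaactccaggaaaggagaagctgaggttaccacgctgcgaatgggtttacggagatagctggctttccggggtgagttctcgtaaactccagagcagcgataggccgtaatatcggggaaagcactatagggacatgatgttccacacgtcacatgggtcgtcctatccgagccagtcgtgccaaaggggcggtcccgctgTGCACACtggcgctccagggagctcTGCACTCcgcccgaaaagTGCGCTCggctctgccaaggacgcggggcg
Mt2: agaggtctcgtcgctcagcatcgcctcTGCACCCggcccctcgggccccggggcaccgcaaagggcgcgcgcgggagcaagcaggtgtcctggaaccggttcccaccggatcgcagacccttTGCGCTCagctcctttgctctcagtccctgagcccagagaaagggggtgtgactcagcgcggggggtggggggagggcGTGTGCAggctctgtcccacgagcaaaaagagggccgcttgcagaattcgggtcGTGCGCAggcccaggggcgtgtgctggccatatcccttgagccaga
Mt3: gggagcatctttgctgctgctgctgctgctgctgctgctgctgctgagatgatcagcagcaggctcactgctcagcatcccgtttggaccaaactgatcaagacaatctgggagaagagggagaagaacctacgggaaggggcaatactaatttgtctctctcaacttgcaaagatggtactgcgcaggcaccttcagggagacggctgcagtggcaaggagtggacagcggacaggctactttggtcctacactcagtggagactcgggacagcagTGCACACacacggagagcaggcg
These windows span chr8:94178839-94179138 for *Mt1*, chr8:94172368-94172667 for *Mt2* and chr8:94152357-94152656 for *Mt3*, each read on the plus strand. The *Mt1* window holds 3 matches, all on the plus strand between bases 228 and 277, the *Mt2* window 4 matches, 2 on each strand, and the *Mt3* window 1 match. Of all 32851 RefSeq promoter windows of this length, 25.7% hold at least 1 match, 1.97% at least 3 and 0.517% at least 4. A window was given for 26 of the 30 members, in 35 windows, and 2 of these windows, those of *Mt1* and *Mt2*, hold 3 or more.

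The pair differed in the IP. *Mt2* measured 4.17, 6.11 and 4.83 CPM in WT IPs against 75.8, 84.03 and 76.02 CPM in inputs (log2 fold change -4.02 ± 0.17 (SE), FDR 1.17e-09), and 6.47 and 7.53 against 122 and 101 CPM in cKO (log2 fold change -4.02 ± 0.15 (SE), FDR 1.11e-08). *Mt1* measured 32.1, 33.5 and 19.8 CPM in WT IPs against 51.7, 52.6 and 58.2 CPM in inputs (log2 fold change -0.98 ± 0.18 (SE), FDR 0.0013), and 41.4 and 38.3 against 77.7 and 58.2 CPM in cKO (log2 fold change -0.80 ± 0.14 (SE), FDR 0.00179). In WT 6.15% of *Mt2* and 50.6% of *Mt1* remained, and in cKO 6.18% and 57.5%. *Mt3* was the member that passed in neither genotype, with 2.60, 2.66 and 1.73 CPM in WT IPs and 2.20, 2.37 and 3.70 CPM in inputs (log2 fold change -0.30 ± 0.31 (SE), FDR 0.525). No 75-base stretch of these transcripts occurs in another gene's transcripts, so reads of the 3 genes were not split between them, although *Mt2* overlaps the predicted gene *Gm45774* in GENCODE, and reads in the overlap may have been set aside as ambiguous.

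**Figure D2:**
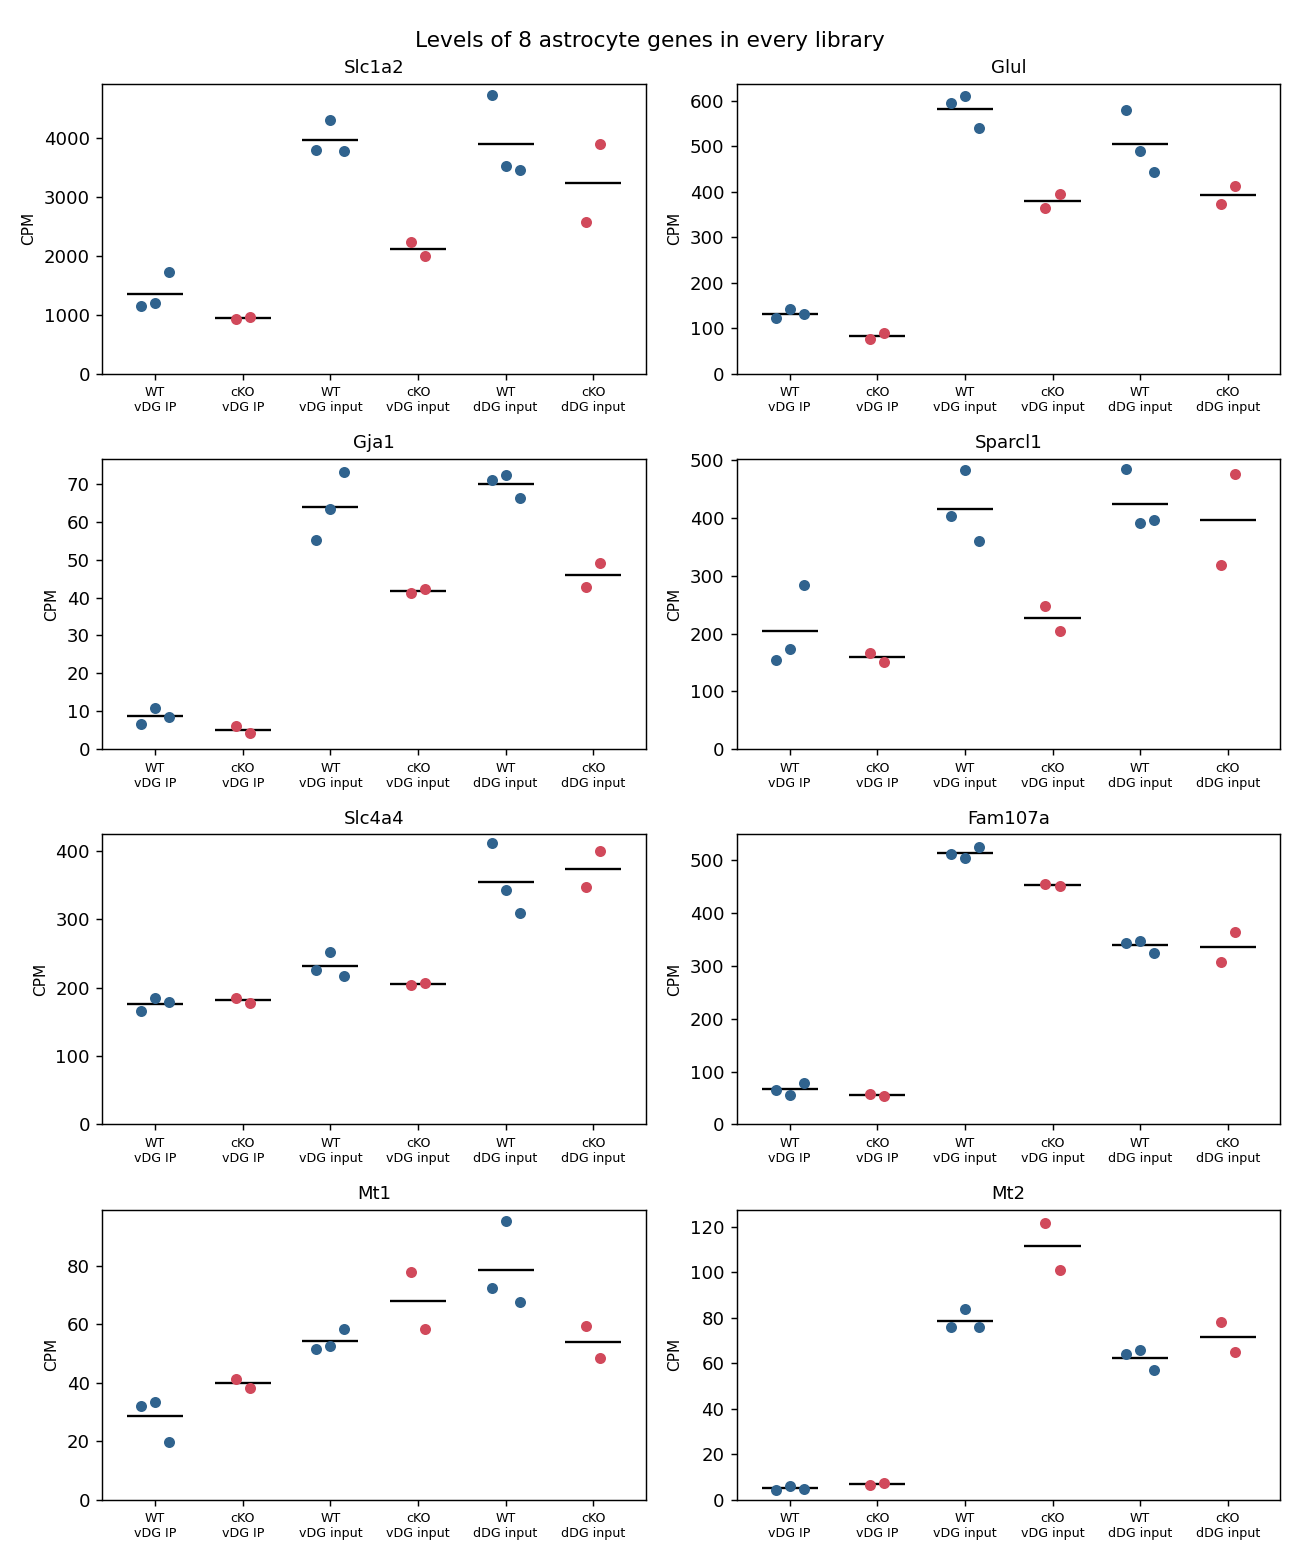
CPM (linear axis from 0) of 8 astrocyte genes in each library, with WT in blue, cKO in red and a black line at the group mean. Slc1a2, Glul, Gja1 and Sparcl1 lie lower in cKO than in WT vDG inputs without overlap, Slc4a4 is higher and Fam107a lower in dDG than in vDG, and Mt2 but not Mt1 is near the bottom of the axis in both IP groups.

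Other cell types were read the same way. Of 40 further astrocyte genes listed apart from the 30 members, 38 were tested in WT, and 37 were lower in the IP. Their median log2 fold change was -2.80. Among those with the largest changes and at least 5 CPM were *Lcat* (log2 fold change -4.08 ± 0.24 (SE), FDR 3.48e-08), *Sdc4* (log2 fold change -4.05 ± 0.18 (SE), FDR 3.02e-09) and *Hepacam* (log2 fold change -3.70 ± 0.25 (SE), FDR 1.37e-07), which encode a lipoprotein-modifying enzyme, a heparan sulfate proteoglycan and a glial adhesion protein. Of 16 oligodendrocyte genes 14 were lower (median -2.88), of 15 microglia genes 15 (median -3.33) and of 11 markers of radial glia-like stem cells 9 (median -2.22), among them *Fabp7*, a fatty acid-binding protein of radial glia (log2 fold change -4.18 ± 0.24 (SE), FDR 1.99e-08). Of 10 interneuron genes 8 were lower in WT (median -2.80), and 7 were lower and 1 higher in cKO (median -2.82). Of the endothelial and mural genes 2 of 14 tested were lower in WT (median -0.13) and 1 of 13 in cKO (median -0.20), and of 5 choroid plexus genes tested 2 were lower in each genotype (medians -0.18 and -1.19). Of 12 granule cell genes 6 were higher in WT IPs (median 0.42), where 1160 of all 15011 genes tested were higher. In cKO IPs 9 were higher (median 0.62), where 1790 of all 15126 genes were. Of 32 genes reported in reactive astrocytes only 19 passed the filter, and their median was -0.55, with 5 lower and 1 higher.

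Inputs of vDG and dDG were compared next, to place the members along the dorsoventral axis. In WT, 5 members were higher in vDG (9.26% of all 15412 genes tested were) and 3 were lower (6.09% of all genes), and the median log2 fold change was 0.03, against -0.01 for all genes. In cKO, 3 members were higher (8.56% of all 15505 genes) and 6 lower (8.47%), with a median of -0.10 against 0.01. The median of the members was 0.03 without cKO dDG input 2 and -0.26 without cKO dDG input 1, so that its sign rests on 1 library. The summed level of the members overlapped between regions in WT, with 7708 to 8654 CPM in vDG and 7133 to 8828 CPM in dDG. In cKO the sums were 4989.6 and 5410.3 CPM in vDG and 5592.5 and 7498 CPM in dDG, which did not overlap, although without *Slc1a2* they did. The WT and cKO fits share no libraries, and across the 30 genes their log2 fold changes had a Pearson r of 0.577 (Spearman rho 0.579) and the same sign for 19.

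**Figure D3:**
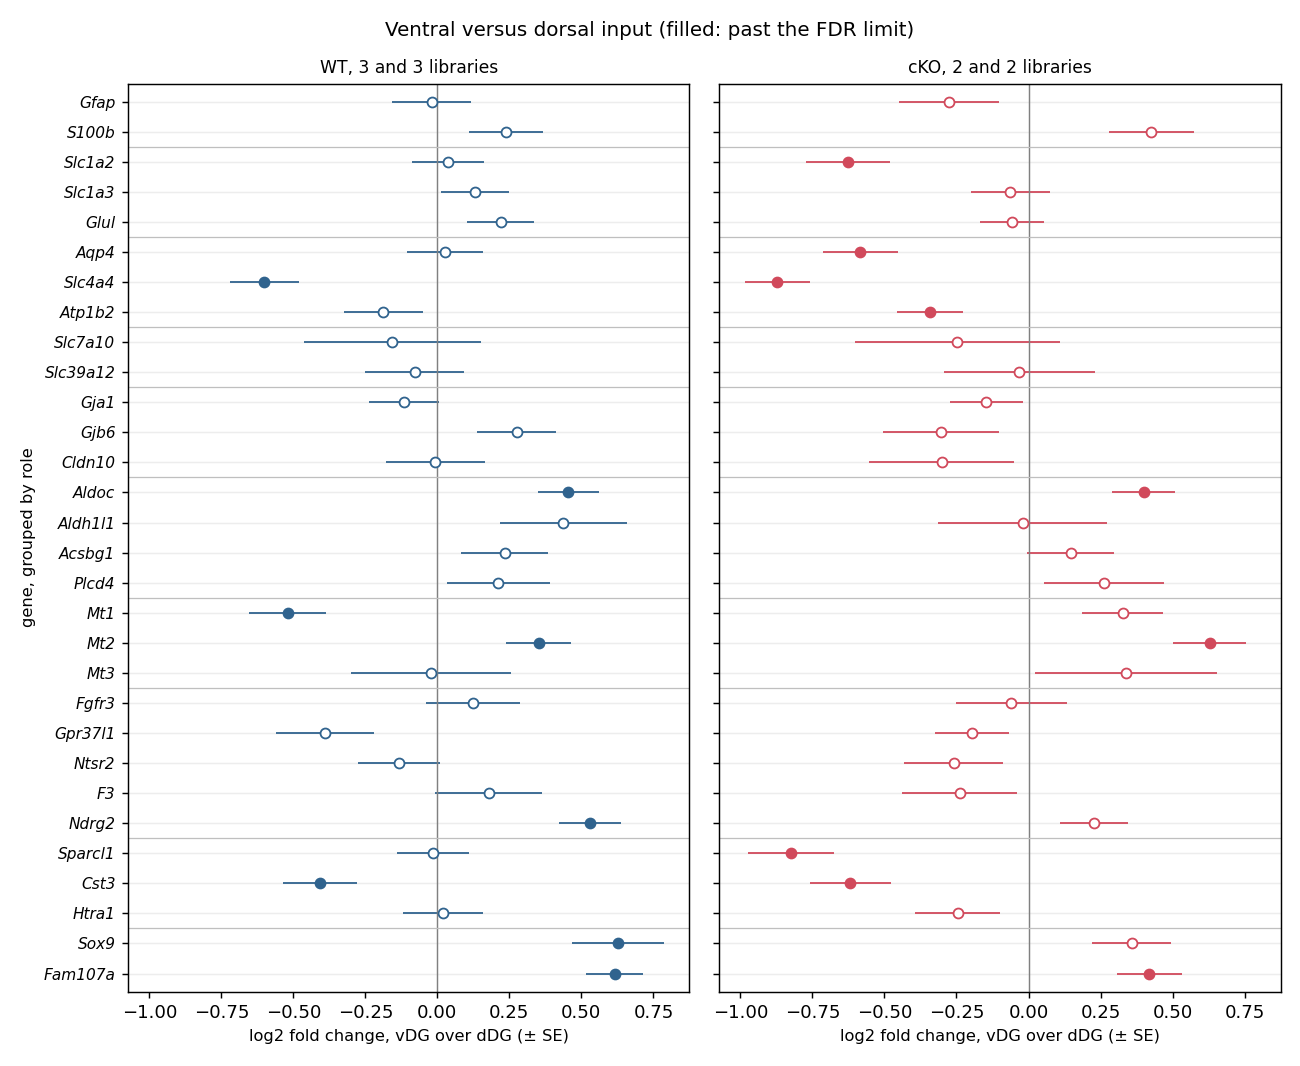
Log2 fold change of vDG over dDG input for each astrocyte gene in WT (left) and cKO (right), with SE from the fit. Filled points passed an FDR of 0.05, among them Slc4a4 on the dorsal side and Aldoc, Mt2 and Fam107a on the ventral side in both genotypes.

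In both genotypes *Aldoc*, *Mt2* and *Fam107a* were higher in vDG. *Fam107a* (chromosome 14, 8296274 to 8318023) measured 512, 505 and 526 CPM in WT vDG and 344, 348 and 325 CPM in WT dDG (log2 fold change 0.62 ± 0.10 (SE), FDR 0.00037), and 455 and 451 against 308 and 364 CPM in cKO (log2 fold change 0.42 ± 0.11 (SE), FDR 0.0135). *Aldoc*, aldolase C of glycolysis, measured 352, 404 and 429.7 CPM in WT vDG and 281, 295 and 298 CPM in WT dDG (log2 fold change 0.46 ± 0.11 (SE), FDR 0.00702), and 327 and 361 against 261 and 256 CPM in cKO (log2 fold change 0.40 ± 0.11 (SE), FDR 0.0138). *Mt2* measured 63.9, 65.8 and 57.01 CPM in WT dDG, below each WT vDG value (log2 fold change 0.35 ± 0.11 (SE), FDR 0.0442), and 78.1 and 64.9 CPM in cKO dDG (log2 fold change 0.63 ± 0.13 (SE), FDR 0.00136). The WT call of *Mt2* was lost in 9 of 14 alternatives, among them each one that left out a single library, whereas its cKO call held in all 11. The cKO call of *Aldoc* was lost in 4 of 11, and that of *Fam107a* in 2 of 11, among them without cKO dDG input 1 (log2 fold change 0.29, FDR 0.198). In WT alone, *Ndrg2* (log2 fold change 0.53 ± 0.11 (SE), FDR 0.00263) and *Sox9*, a transcription factor of glia and neural stem cells (log2 fold change 0.63 ± 0.16 (SE), FDR 0.0116), also passed. Their cKO values were 0.23 ± 0.12 (FDR 0.198) and 0.36 ± 0.14 (FDR 0.0793), and in neither gene did the test of genotype by region pass.

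On the dorsal side, *Slc4a4* (chromosome 5, 88886818 to 89239653) and *Cst3*, which encodes the secreted protease inhibitor cystatin C, passed in both genotypes. *Slc4a4* measured 225, 251 and 217 CPM in WT vDG and 412, 342 and 308 CPM in WT dDG (log2 fold change -0.60 ± 0.12 (SE), FDR 0.00211), and 204 and 207 against 347 and 400.0 CPM in cKO (log2 fold change -0.87 ± 0.11 (SE), FDR 1.29e-05). The regions did not overlap in either genotype, and the call held under every alternative run for these comparisons. *Cst3* measured 226, 243 and 320.1 CPM in WT vDG and 336, 386 and 335 CPM in WT dDG (log2 fold change -0.41 ± 0.13 (SE), FDR 0.0391), with log2 fold change -0.62 ± 0.14 (SE), FDR 0.00405 in cKO. Its WT call was lost in 5 of 14 alternatives, 4 of them leaving out a single library, and its cKO call in 1 of 11. *Mt1* was lower in WT vDG (log2 fold change -0.52 ± 0.13 (SE), FDR 0.0126), opposite in sign to its neighbour *Mt2*, but in cKO its log2 fold change was 0.33 ± 0.14 (FDR 0.116) and its groups overlapped. The WT calls of *Mt1* and *Sox9* were each lost in 3 of 14 alternatives. In cKO alone, *Slc1a2* (log2 fold change -0.63 ± 0.15 (SE), FDR 0.00494), *Sparcl1* (log2 fold change -0.82 ± 0.15 (SE), FDR 0.000544), *Aqp4* (log2 fold change -0.58 ± 0.13 (SE), FDR 0.00335) and *Atp1b2* (log2 fold change -0.34 ± 0.11 (SE), FDR 0.0452) were lower in vDG. DESeq2 called 4 members lower (7.98% of all genes with an adjusted p), without *Slc1a2* (FDR 0.178) and *Sparcl1* (FDR 0.064). *Slc1a2* was also not called without cKO dDG input 2 (log2 fold change -0.28), where *Sparcl1* was at -0.49 (FDR 0.0115), and *Atp1b2* was lost in 4 of 11 alternatives. None of these 4 genes passed the test of genotype by region by edgeR.

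Choroid plexus tissue lies next to the hippocampus, and its markers differed between these libraries. Summed CPM of 10 choroid plexus genes was 42.3, 107 and 165 in WT dDG inputs 1, 2 and 3, and 21.2 to 39.8 in all vDG libraries and cKO dDG inputs. Of the 10 genes 7 were tested and 4 were lower in WT vDG than dDG, with *Ttr*, the transthyretin of choroid epithelium, at log2 fold change -4.12 ± 0.69 (SE), FDR 0.000482. *Cst3* is also highly expressed by choroid plexus, and the part of this tissue in its values was not tested. It was lower in cKO vDG as well, where the dDG inputs held 32.8 and 26.1 CPM of the choroid plexus genes. Without WT dDG inputs 2 and 3, an alternative chosen after seeing the data, 1 member was called higher in WT vDG (*Fam107a*, 5.78% of all genes) and 1 lower (*Slc4a4*, 4.18%), and *Cst3* had a log2 fold change of -0.35 (FDR 0.279) and *Mt1* of -0.41 (FDR 0.169). The lone WT dDG library is then assumed to vary like the WT vDG libraries. Single libraries also mattered: without WT vDG input 1 or WT dDG input 2 the members called higher were 3 (8.12% and 6.54% of all genes), and without WT vDG input 2 or WT dDG input 2 those called lower were 1 (4.46% and 3.93%). Titles number the cKO dDG inputs 1 and 2, as used here, whereas their count tables carry the numbers 2 and 3. In cKO, leaving out dDG input 2 reduced the 6 lower members to 3, where 3.91% of all genes were lower. The pair of cKO dDG inputs was far apart, with 2568 and 3898 CPM of *Slc1a2* and 55.9 and 97.5 CPM of *Gfap*.

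Of 11 markers of radial glia-like stem cells 3 were higher in WT vDG (median 0.26) and 4 in cKO vDG (median 0.33), and the others did not pass, with log2 fold changes from -0.93 to 0.32 in WT and from -0.71 to 0.43 in cKO. *Fabp7* was at log2 fold change 0.67 ± 0.14 (SE), FDR 0.00337 in WT and log2 fold change 1.07 ± 0.15 (SE), FDR 4.71e-05 in cKO. Of 12 granule cell genes 8 were lower in WT vDG and 11 in cKO vDG. Of 16 oligodendrocyte genes 7 were lower in WT vDG (median -0.31) and 5 in cKO vDG (median -0.40), and of 10 interneuron genes 5 and 4 were higher (medians 0.55 and 0.50). Microglia genes had medians of -0.30 and -0.24 and endothelial and mural genes of -0.65 and -0.18, with none called by edgeR in either genotype. At an unadjusted p under 0.05, 0 and 1 microglia and 3 and 0 endothelial and mural genes were lower. Of all genes, 1860 of 15412 in WT and 2289 of 15505 in cKO were lower at this limit. In WT 1 endothelial or mural gene was higher. Without WT dDG inputs 2 and 3, 2 of the stem cell markers were higher in WT vDG (median 0.23), 8 of the granule cell and 4 of the oligodendrocyte genes were lower, and 5 of the interneuron genes were higher. In that fit 2 of 15 microglia genes (median -0.74) and 4 of 15 endothelial and mural genes (median -1.01) were lower, and the remaining WT dDG input 1 had the highest summed CPM of both lists among the WT dDG inputs. The part of these markers in the members' values was not tested.

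Genotypes were compared last, within each fraction and region, to see whether astrocyte genes differed where the receptor was lost from neurons. In vDG inputs, 11 of 30 members were lower in cKO than in WT (2.33% of all 15786 genes tested were lower) and 1 was higher (0.108% of all genes). The median log2 fold change was -0.56, against 0.01 for all genes tested. The members of cKO and WT did not overlap, with cKO lower, in 20 of 30 genes, where 17.1% of all genes were so. Summed over the 30 members, WT vDG inputs held 7708, 8654 and 7904 CPM and cKO vDG inputs 5410.3 and 4989.6 CPM, 64.3% of the WT mean. Without *Slc1a2* the cKO sum was 74.8% of the WT mean, and the groups still did not overlap.

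**Figure D4:**
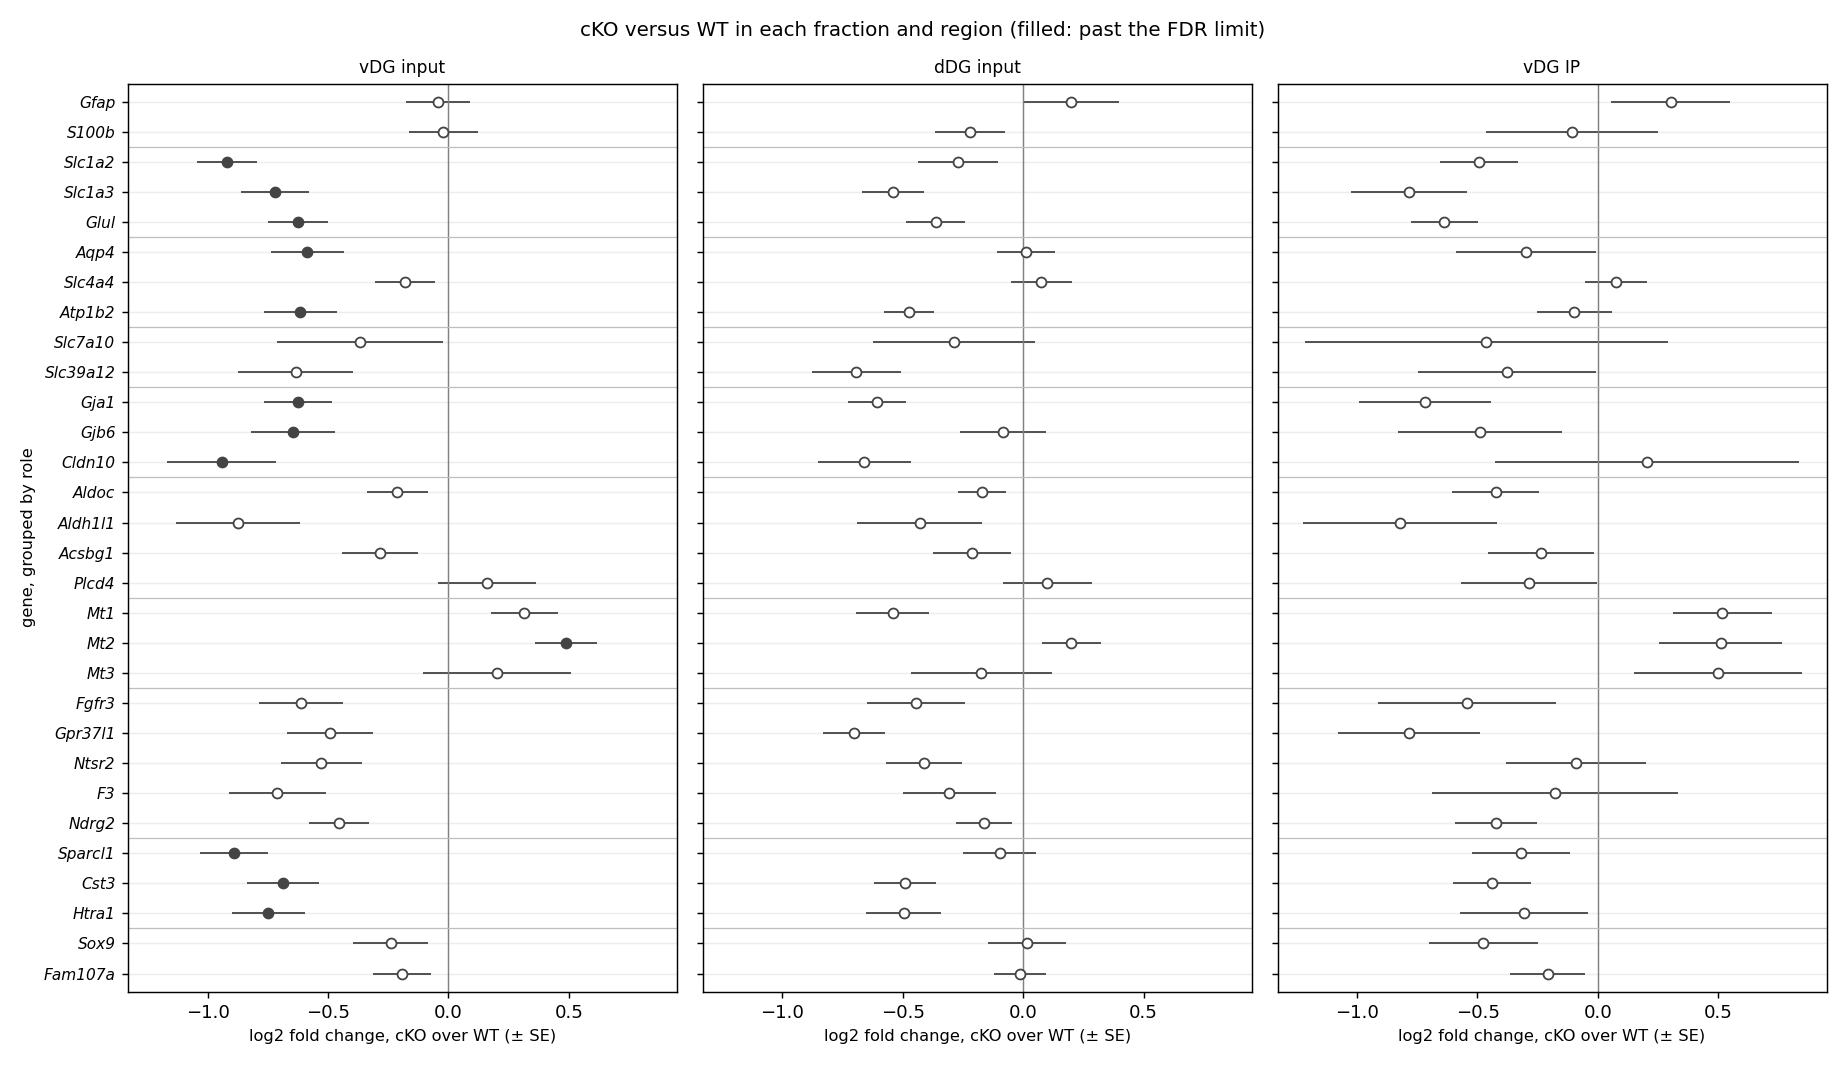
Log2 fold change of cKO over WT for each astrocyte gene in vDG input, dDG input and vDG IP, with SE from the fit and 1 shared axis. Filled points passed the FDR limit (0.05 for inputs, 0.1 for the IP), which 12 genes did in vDG input, 0 in dDG input and 0 in the IP.

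All 3 members of glutamate uptake and recycling were lower. *Slc1a2* measured 3798, 4305 and 3775 CPM in WT and 2237 and 1989 CPM in cKO vDG inputs (log2 fold change -0.92 ± 0.12 (SE), FDR 0.00114). Its call held under all 12 alternatives run for this comparison, with log2 fold changes from -0.998 to -0.843. *Slc1a3* measured 192, 260.0 and 237 CPM in WT and 155 and 126 CPM in cKO (log2 fold change -0.72 ± 0.14 (SE), FDR 0.00731). *Glul* measured 595, 611 and 539 CPM in WT and 365 and 395 CPM in cKO (log2 fold change -0.63 ± 0.12 (SE), FDR 0.00817). In each of these genes both cKO values lay below all 3 WT values.

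The junction genes and the secreted proteins were likewise lower throughout. *Gja1* measured 55.3, 63.4 and 73.1 CPM in WT and 41.2 and 42.4 CPM in cKO (log2 fold change -0.62 ± 0.14 (SE), FDR 0.0182). *Gjb6* measured 28.5, 37.6 and 37.9 CPM and 17.9 and 26.7 CPM (log2 fold change -0.65 ± 0.17 (SE), FDR 0.0476), close to the limit, and *Cldn10* 7.52, 8.70 and 9.43 CPM and 5.57 and 3.42 CPM (log2 fold change -0.94 ± 0.23 (SE), FDR 0.0263). Among secreted proteins, *Sparcl1* fell from 404, 483 and 359.9 CPM in WT to 248 and 205 CPM in cKO (log2 fold change -0.89 ± 0.14 (SE), FDR 0.00269). *Htra1*, a serine protease gene that overlaps *Fgfr2*, measured 34.3, 30.8 and 31.8 CPM and 20.2 and 18.6 CPM (log2 fold change -0.75 ± 0.15 (SE), FDR 0.00817), and *Cst3* 226, 243 and 320.1 CPM and 186 and 143 CPM (log2 fold change -0.69 ± 0.15 (SE), FDR 0.0142). Groups did not overlap in any of these 6 genes.

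Of the ion and water transport genes, *Aqp4* (80.2, 115 and 94.4 CPM in WT, 72.7 and 57.2 CPM in cKO, log2 fold change -0.59 ± 0.15 (SE), FDR 0.0374) and *Atp1b2* (232, 369 and 315 and 217 and 185 CPM, log2 fold change -0.61 ± 0.15 (SE), FDR 0.0302) were lower, while *Slc4a4* was at -0.18 ± 0.12 (FDR 0.526). Both structural markers lay close to 0, *Gfap* at -0.04 ± 0.13 (FDR 0.92) with 70.2, 59.4 and 65.8 CPM in WT and 61.4 and 66.2 CPM in cKO, and *S100b* at -0.02 ± 0.14 (FDR 0.962). *Aldoc*, *Acsbg1*, *Sox9* and *Fam107a* lay between -0.28 and -0.19 and did not pass. *Aldh1l1* (-0.87 ± 0.26, FDR 0.07), *F3*, the gene of tissue factor (-0.71 ± 0.20, FDR 0.061), *Fgfr3*, a fibroblast growth factor receptor gene (-0.61 ± 0.17, FDR 0.0612), and *Ndrg2* (-0.45 ± 0.12, FDR 0.0514) were just outside the limit. Further out were *Ntsr2* (-0.53 ± 0.17), *Gpr37l1* (-0.49 ± 0.18), *Slc39a12* (-0.63 ± 0.24), *Slc7a10* (-0.37 ± 0.34) and *Plcd4* (0.16 ± 0.20), with FDRs of 0.0982 to 0.758. DESeq2, with an adjusted p for 28 members, called 15 lower and 1 higher, and 626 of all genes in either direction. Its lower calls included *Aldh1l1*, *F3*, *Fgfr3* and *Ndrg2*, which edgeR did not call. The metallothioneins had positive values, and *Mt2* was the 1 member called higher, with 75.8, 84.03 and 76.02 CPM in WT and 122 and 101 CPM in cKO (log2 fold change 0.49 ± 0.13 (SE), FDR 0.0427).

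These counts depended on single libraries, as each cKO group held 2. Without WT vDG input 2 or 3 the lower members were 7 and 5 (1.51% and 1.34% of all genes), and without cKO vDG input 1 or 2 they were 2 and 1 (0.0245% and 0.274%). Of the 12 alternatives, *Gjb6* lost its call in 8, among them both other scalings and the replicate block. *Gja1*, *Cldn10*, *Aqp4*, *Atp1b2* and *Mt2* lost it in 5 each, *Slc1a3*, *Htra1* and *Cst3* in 3 each, *Glul* in 2 and *Sparcl1* in 1. With all 15 libraries in one fit 4 lower members passed (0.812% of all genes), and without WT vDG input 3 or either cKO vDG input *Mt2* did not. No member that passed changed sign under any alternative. With 2 against 3 libraries the smallest two-sided p of an exact permutation test of 1 gene is 0.2, so all calls rest on the spread shared across genes.

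Of the 40 further astrocyte genes, 14 were lower in cKO vDG inputs and the median log2 fold change was -0.52. They included *Mfge8*, which encodes a secreted bridging protein of phagocytosis (log2 fold change -0.94 ± 0.15 (SE), FDR 0.00331), *Lcat* (log2 fold change -0.93 ± 0.21 (SE), FDR 0.0166) and *Bcan*, the proteoglycan brevican (log2 fold change -0.88 ± 0.17 (SE), FDR 0.00706). Of 22 reactive astrocyte genes tested, 1 was lower, *Serpina3n*, a protease inhibitor of injured tissue (log2 fold change -0.66 ± 0.16 (SE), FDR 0.0277). Several other lists had negative medians. Microglia genes had a median of -0.58, with 14 of 15 below 0, endothelial and mural genes of -0.34, with 14 of 15 below 0, and interneuron genes of -0.27, with 8 of 10 below 0. None of these was called by edgeR. At an unadjusted p under 0.05, 2 microglia, 1 endothelial or mural and 4 interneuron genes were lower, where 10.6% of all genes were, and 0, 1 and 1 were higher, where 4.23% were. The medians were -0.09 for oligodendrocyte genes, where 1 of 16 was lower, and 0.02 for granule cell genes, where 1 of 12 was lower. That 1 was *Dsp* (log2 fold change -0.94 ± 0.21 (SE), FDR 0.0156), and 6 of the 12 lay above 0 and 6 below. The ventral marker *Trhr* was at -0.50 ± 0.19 (FDR 0.179). The paper used *Dsp* and *Trhr* as markers of its dissection, and a difference in dissection between genotypes was not tested. Summed CPM of 16 oligodendrocyte genes was 479 and 525 in cKO against 487 to 594 in WT, that of 15 microglia genes 35.6 and 50.2 against 47.2 to 77.1, and that of 12 granule cell genes 2874 and 3049 against 2678 to 3146, each with overlap. Of the choroid plexus genes tested *Ttr* was higher (log2 fold change 1.11 ± 0.28 (SE), FDR 0.0372), and their summed CPM was 28.0 and 39.8 in cKO against 27.2 to 32.6 in WT. The part of these other cell types in the astrocyte values was not tested. Of the 11 stem cell markers, none was called by edgeR or had an unadjusted p under 0.05, and their median was 0.16.

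**Figure D5:**
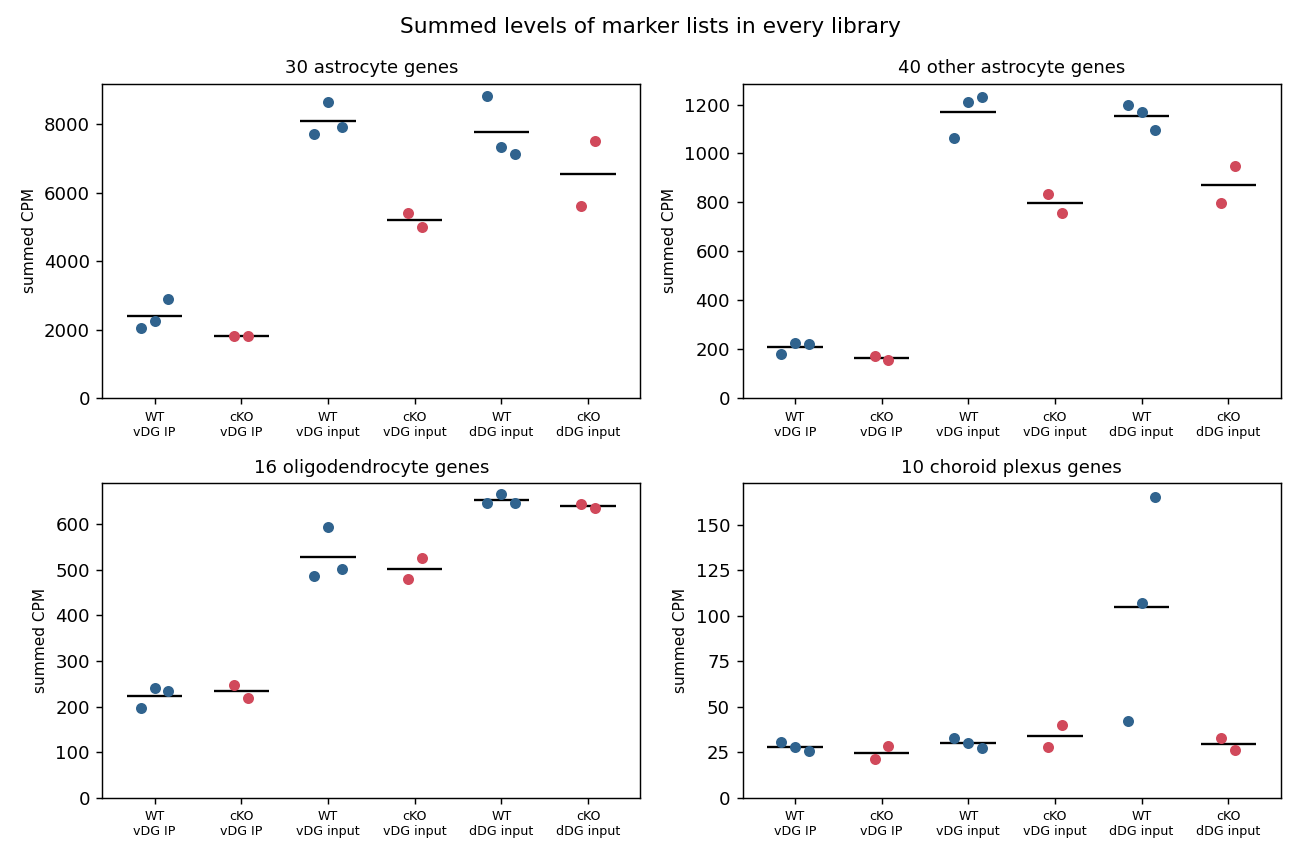
Summed CPM (linear axes from 0) of the 30 astrocyte genes, 40 other astrocyte genes, 16 oligodendrocyte genes and 10 choroid plexus genes in each library, with WT in blue, cKO in red and a black line at the group mean. Both astrocyte lists are lower in cKO than WT vDG inputs without overlap, oligodendrocyte genes overlap, and choroid plexus genes reach 107 and 165 CPM in WT dDG inputs only.

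In dDG inputs edgeR called 0 of 30 members, where 0.0325% of all 15383 genes were called in either direction. At an unadjusted p under 0.05, 12 members were lower (7% of all genes) and 0 higher (5.23%). DESeq2, with an adjusted p for 27 members, called 5 lower, where 0.829% of all genes with an adjusted p were (*Slc1a3*, *Atp1b2*, *Gja1*, *Gpr37l1* and *Cst3*). The median log2 fold change was -0.28, against -0.02 for all genes, and cKO lay below WT without overlap in 11 of 30 genes (15.5% of all genes). *Gpr37l1*, an orphan receptor gene of glia, was lowest, with 64.2, 76.3 and 70.9 CPM in WT and 39.8 and 46.96 CPM in cKO (log2 fold change -0.70 ± 0.13 (SE), FDR 0.0954). *Gja1* measured 70.97, 72.4 and 66.4 CPM and 42.7 and 49.2 CPM (log2 fold change -0.61 ± 0.12 (SE), FDR 0.12), also without overlap. *Slc1a2* overlapped between the genotypes, with 4729, 3517 and 3452 CPM in WT and 2568 and 3898 CPM in cKO (log2 fold change -0.27 ± 0.17 (SE), FDR 0.542). Of the 40 further astrocyte genes 2 were lower, *Mfge8* (log2 fold change -0.98 ± 0.14 (SE), FDR 0.0257) and the lipoprotein gene *Apoe* (log2 fold change -0.92 ± 0.13 (SE), FDR 0.0307). Several other lists had negative medians as well. The median was -0.51 for microglia genes, with 15 of 15 below 0, -0.60 for endothelial and mural genes, with 13 of 15 below 0, and -1.56 for choroid plexus genes, with 8 of 8 below 0. None of these was called by edgeR, and 6, 4 and 5 were lower at an unadjusted p under 0.05, the limit that 7% of all genes passed. Oligodendrocyte and interneuron genes had medians of -0.08 and -0.03. Their part in the astrocyte values was not tested. Without WT dDG input 1 or 3 the members called lower were 1 and 2 (0.119% and 0.415% of all genes). Without both WT dDG libraries with high choroid plexus markers, inputs 2 and 3, WT was represented by input 1 alone, which is then assumed to vary like the pair of cKO libraries, and 9 members were called lower and 4.16% of all genes. In the same fit 9 of 15 microglia genes (median -0.93) and 7 of 15 endothelial and mural genes (median -1.14) were called lower as well. Input 1 was the highest WT dDG library for all of these, with summed CPM of 97.0 for microglia genes against 58.9 and 55.6 in inputs 2 and 3, of 118 against 79.6 and 53.2 for endothelial and mural genes, and of 8828 against 7340.5 and 7133 for the members, so that these calls compare cKO with a single library.

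In vDG IPs, where the FDR limit was 0.1, edgeR called 0 of 30 members and 0.42% of all 14300 genes. At an unadjusted p under 0.05, 8 members were lower (7.57% of all genes) and 1 higher (4.14%). DESeq2, which gave an adjusted p for 11 of the 30 members, called *Slc1a3* and *Glul* lower, where 2.5% of all genes with an adjusted p were. *Glul* came closest, with 123, 141 and 131 CPM in WT IPs and 76.8 and 88.6 CPM in cKO IPs (log2 fold change -0.64 ± 0.14 (SE), FDR 0.101). The median log2 fold change was -0.31 against 0.00 for all genes, and -0.20 without cKO IP 2, and 14 of 30 members lay lower in cKO without overlap (18.3% of all genes). In 3 of 30 members, the metallothioneins, cKO lay above WT without overlap (12% of all genes), with log2 fold changes of 0.50 to 0.52 and FDRs of 0.36 to 0.605, so that none passed. Summed over the members, the IPs held 2048, 2251 and 2896 CPM in WT and 1809 and 1798 CPM in cKO. Other lists had medians of -0.33 for 8 interneuron genes, 7 of them below 0, -0.34 for 8 microglia genes, 6 of them below 0, and -0.27 for 13 endothelial and mural genes, 11 of them below 0. Of these genes the inhibitory neuron gene *Gad2* was called lower (log2 fold change -0.91 ± 0.15 (SE), FDR 0.0618). Oligodendrocyte genes had a median of -0.04 and stem cell markers one of 0.35, with 8 of 10 above 0. Their part in the astrocyte values was not tested. Without WT IP 1 or 3 the members called lower were 3 and 1 (1.06% and 0.681% of all genes).

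The differences between these comparisons were tested as interactions. For genotype by fraction in vDG, edgeR and DESeq2 called 0 members, and 4 of 30 had an unadjusted p under 0.05 (3.09% of all 16093 genes). These were *Slc1a2*, *Atp1b2*, *Cldn10* and *Sparcl1*, with log2 differences of 0.44 to 1.15, the cKO IP being less depleted. For genotype by region in inputs, edgeR called 0 members and 5 of 30 had an unadjusted p under 0.05 (12.3% of all 16306 genes). *Mt1* had the largest, log2 fold change 0.85 ± 0.22 (SE), FDR 0.15, followed by *Sparcl1* (log2 fold change -0.81 ± 0.23 (SE), FDR 0.178), and DESeq2, with an adjusted p for 21 members, called both (4.36% of all genes with an adjusted p). *Slc1a2* was at -0.66 ± 0.22 (FDR 0.234) and *Aqp4* at -0.61 ± 0.21 (FDR 0.243). With no count filter edgeR called 1 member higher (0.525% of all genes) and 2 lower (1.06%), and without cKO dDG input 1 it called 1 lower (0.27%). Without WT dDG inputs 2 and 3, with 1 WT dDG library left, it called 0 members, with 1 higher and 3 lower at an unadjusted p under 0.05 (4.93% and 6.82% of all genes), and the median of the members was -0.11 against -0.20 with all inputs. Without cKO dDG input 2 the median was -0.06, and without cKO dDG input 1 it was -0.31.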

How the data were processed

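RNA-seq libraries were made from TRAP IP and input RNA (NuGEN Ovation V2 amplification, TruSeq v2). The values used are raw read counts per gene and library, deposited by the authors, who aligned reads with STAR 2.4.2a to mm10, removed duplicates with SAMtools 0.1.19-444 and counted reads on gene exons with htseq-count in union mode. Removing duplicates can lower the counts of abundant transcripts, and its effect on *Slc1a2* was not measured. Reads in overlapping genes were not counted, 2.881 to 3.145% of reads in IPs and 6.355 to 9.602% in inputs. The 5 deposited tables of the authors' own comparisons hold fold changes and p-values and were not used.

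Counts were tested with the quasi-likelihood F-test of edgeR 4.0.16 (limma 3.58.1, R 4.3.3) after TMM scaling and filterByExpr, each comparison on its own groups, with Benjamini-Hochberg adjustment over all genes tested (FDR). The limit was 0.05, and 0.1 for cKO against WT in the IP. The SE of a log2 fold change was its size divided by the square root of F. Interactions were fitted on 4 groups. DESeq2 1.42.0, other scalings, filters, limits and left-out libraries were alternatives. Scripts were tested on simulated data. Positions are from GENCODE (GRCm38), promoters from RefSeq, and figures were drawn with matplotlib 3.10.9. All 30 members are accounted for; of the other lists at most the 3 called genes with the largest log2 fold change in a direction and a mean of at least 5 CPM are named. *Trhr* is a region check. The members and lists were chosen with earlier results of these data known.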

Additional observations from a re-analysis of the deposited data

How the results depend on the processing

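No called log2 fold change of a member changed sign under an alternative. The counts of members called lower in the IP changed little, with 27 to 29 in WT and 25 to 28 in cKO when single libraries were left out. Scaling by library size alone shifted the median of all genes to -0.13 in the WT and -0.20 in the cKO comparison of IP with input, and gave mean summed levels of 1673 CPM in cKO IPs and 5517 CPM in cKO vDG inputs. For vDG against dDG in cKO, the 3 higher members became 5 with library size alone, where the median of all genes moved from 0.008 to 0.079. The higher members were 1 with all 15 libraries in one fit and 5 at an FDR of 0.1. Leaving out single libraries gave 2 to 4 higher and 3 to 8 lower, and in WT 3 to 4 higher and 1 to 4 lower. Without both WT dDG inputs with high choroid plexus markers, chosen after seeing the data, 1 and 1 remained called in WT, and 9 were lower in cKO against WT dDG input. WT dDG was then 1 library, assumed to vary like the other group, and that library had the highest summed level of the members among the WT dDG inputs. In the latter comparison DESeq2 called 5 lower, no count filter gave 6 and an FDR of 0.1 gave 1, with 0 to 2 over left-out libraries. In vDG IPs, DESeq2 called 2 lower, library size alone 1, no filter 3, at least 10 counts 1, one fit 3 and left-out libraries 0 to 3. DESeq2 gave an adjusted p for 28 members in vDG inputs and called 15 lower and 1 higher. There, no filter gave 17 lower and one fit 4 lower and 0 higher, and left-out libraries gave 1 to 14 lower and 0 to 1 higher. For genotype by region, DESeq2 called 1 higher and 1 lower, no filter 1 and 2, and left-out libraries 0 to 1 lower. The counts of called members in this paragraph stand without the share of all genes called in the same fit. They show how far the calls moved, not how members moved against other genes. The causes were not tested.

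The labels do not say whether libraries of one number share animals. The methods take input RNA from the lysate before the IP, so an IP and an input may share a homogenate, but the labels give them pools of different size. Same-numbered libraries had correlations of deviations of 0.235, -0.00154 and -0.0365 in WT IP and input, against -0.191 to 0.185 for different numbers. In WT vDG and dDG the values were 0.252, 0.0473 and 0.181, against -0.219 to 0.0477 for different numbers. In cKO IP and input both were 0.11, which is a single value, since deviations within a group of 2 libraries mirror each other. Whether libraries are paired was not settled, and the main fits included no pairing. With the replicate block 29 members were lower in the IP of each genotype, 7 were higher in cKO vDG against dDG, 1 was lower in IPs by genotype, 0 were higher in vDG inputs, 3 were lower in dDG inputs and 1 was higher for genotype by region. The share of all genes called with the block is not given, so these counts show only that calls moved. Blocks with cKO dDG inputs rest on the numbers in their titles, whereas by those of their count tables, 2 and 3, they share only 1 number with the cKO vDG inputs. Each cKO group had 2 libraries.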
